A study of Mus musculus with 40 samples.

Results

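The genes described are 7 Toll-like receptors, Tlr3, Tlr4, Tlr6, Tlr7, Tlr8, Tlr9 and Tlr13, together with the co-receptor Cd14 and the adaptors Myd88 and Ticam1. They were chosen by gene symbol, and all 10 were found among the 14318 genes of the table. RNA-sequencing values were available for 39 primary tumors from 2 intraductal mouse models of triple-negative breast cancer, 19 grown from 4T1-luc and 20 from 66cl4-luc cells, which are luciferase-expressing mouse mammary tumor cell lines. All hosts were WT female BALB/c mice that had been mated at 8 w of age. They were lactating when inoculated, just after their pups had been weaned, and tumors were taken at 5 w p.i. Treatment was given by i.p. injection from 3 w p.i. and consisted of 1 mg chitin every 3 d as a blocker of chitinase-like proteins, 200 µg anti-PD-1 weekly, both, or nothing. Each model thus had an untreated, an anti-PD-1, a chitin and a chitin + anti-PD-1 group of 5 tumors each, apart from the untreated 4T1 group with tumors 1, 2, 4 and 5. The cells had been put into a pair of glands per mouse and the labels do not say which tumors shared a mouse, so that p-values measure the spread between tumors. Each model rests on a single cell line with an inoculum of its own, so that line, inoculum and any handling by model cannot be told apart. A whole tumor holds tumor cells and host cells, and fewer cells of a type and less RNA per cell cannot be told apart in these data.

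Toll-like receptors are innate immune sensors of microbial and damage-derived molecules, and in tumors they are known mainly from macrophages, dendritic cells and other myeloid cells, although tumor cells can carry some of them. Tlr4 and Tlr6 sit at the cell surface, where Tlr4 senses lipopolysaccharide handed over by Cd14 and Tlr6 pairs with Tlr2 to sense lipopeptides. Tlr3, Tlr7, Tlr8, Tlr9 and Tlr13 sit in endosomes and sense nucleic acids. Myd88 is the adaptor through which all of these receptors except Tlr3 signal to NF-κB, and Ticam1, also called TRIF, serves Tlr3 and internalized Tlr4 and leads to type I interferon.

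Tlr8, Tlr9 and Tlr13 varied together between 4T1 tumors, as described further on, and their promoters are shown for that reason. The windows run from 250 bases before to 50 bases after the gene start, 5′ to 3′ on the strand of the gene, as given by RefSeq for GRCm38.p6. Capitals mark GAGGAA, the core letters bound by the myeloid factor PU.1, or its reverse complement TTCCTC.
Tlr8, chrX:167264280-167264579, minus strand: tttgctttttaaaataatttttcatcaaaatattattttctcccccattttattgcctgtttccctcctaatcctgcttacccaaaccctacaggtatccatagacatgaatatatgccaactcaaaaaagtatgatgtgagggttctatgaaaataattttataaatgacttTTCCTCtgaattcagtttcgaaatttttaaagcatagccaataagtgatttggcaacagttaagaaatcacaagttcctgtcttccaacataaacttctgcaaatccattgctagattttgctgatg
Tlr9, chr9:106222348-106222647, plus strand: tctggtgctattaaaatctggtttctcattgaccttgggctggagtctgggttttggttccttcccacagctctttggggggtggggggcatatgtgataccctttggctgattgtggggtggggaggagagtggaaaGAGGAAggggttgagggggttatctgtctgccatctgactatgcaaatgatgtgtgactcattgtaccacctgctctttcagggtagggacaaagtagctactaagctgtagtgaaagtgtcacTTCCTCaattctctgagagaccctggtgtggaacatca
Tlr13, chrX:106143025-106143324, plus strand: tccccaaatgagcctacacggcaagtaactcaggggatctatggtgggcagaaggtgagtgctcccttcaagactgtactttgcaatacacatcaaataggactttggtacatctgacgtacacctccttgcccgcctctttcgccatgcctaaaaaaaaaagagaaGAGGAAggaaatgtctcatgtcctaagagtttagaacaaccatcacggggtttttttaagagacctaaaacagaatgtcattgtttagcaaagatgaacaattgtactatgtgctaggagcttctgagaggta
The letters stood 77 bases before the RefSeq gene start in Tlr8 on the reverse strand, 112 bases before it in Tlr9 with another copy 12 bases after it on the reverse strand, and 83 bases before it in Tlr13. For Tlr13 the RefSeq start lies downstream of the start given with the positions below. RefSeq windows were at hand for 7 of the 10 genes (not Tlr4, Tlr7 and Cd14) with 8 windows in all, since Tlr6 has 2 starts, and 4 of these 8 windows held GAGGAA on either strand, the other being that of Ticam1. Of all 32851 mouse promoter windows of this length, 28.3% held it. A core interferon-stimulated response element, searched on both strands as well, was matched in Myd88 and in 1 window of Tlr6, against 3.44% of all windows, and an NF-κB site in Tlr3, against 1.47%. A match describes the letters in the window and does not show binding. Myd88 and Tlr6 also varied along with the shown genes in 4T1, and their windows lacked GAGGAA. Ticam1 held it and had r from -0.35 to -0.067 with the shown genes in 4T1. A link between these letters and the shared variation was not tested.

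On the mm10 build, Tlr7 (chromosome X, 167304929 to 167330558, minus strand) and Tlr8 (167242696 to 167264329, minus strand) are neighbours, with 40599 bases between them, and Tlr13 lies on the same chromosome at 106143204 to 106160493 on the plus strand. Tlr9 (106222598 to 106226883, plus strand) and Myd88 (119335934 to 119341411, minus strand) are both on chromosome 9. Tlr3 is on chromosome 8 (45395665 to 45411080, minus strand), Tlr4 on chromosome 4 (66827584 to 66930284, plus strand), Tlr6 on chromosome 5 (64952031 to 64960097, minus strand), Ticam1 on chromosome 17 (56269319 to 56276786, minus strand) and Cd14 on chromosome 18 (36725067 to 36726798, minus strand). All 10 are protein-coding. The Myd88 gene overlaps Slc22a14 on its own strand and Acaa1a on the other strand, and Tlr3 overlaps an antisense gene, Gm45542. The counting took strand into account and left out reads lying only in a stretch that same-strand genes share, as Myd88 and Slc22a14 do, while reads that match both Tlr6 and its paralog Tlr1 leave these counts uncertain.

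Depth, as reads counted in the 14318 genes of the table, ran from 5105898 to 14800352 reads per tumor, with a median of 6590274. It was higher in the chitin-containing than in the other groups of 66cl4, with means of 9901574 and 6446900 reads (permutation test, two-sided, p = 0.00138), while the means were 8436511 and 7034209 reads in 4T1 (exact permutation test, two-sided, p = 0.186). Every member had at least 11 reads in every tumor. Macrophage markers (8 genes, among them Adgre1, Csf1r and C1qa) were above 0 in every group, and their summed normalized count ran from 5299 to 33552 in 4T1 and from 25947 to 48591 in 66cl4. The plasmacytoid dendritic cell markers Siglech and Ccr9 were at most at 62.7 and 41.9 normalized counts, and each was at 0 in 3 of the 39 tumors. Of the epithelial markers, Epcam ran from 1958 to 10397 normalized counts in 4T1 and from 1.12 to 123 in 66cl4, in which Krt8 ran from 3152 to 5709.

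Levels of different genes were compared per kb of exon, as normalized counts divided by the summed exon length. Cd14, which binds lipopolysaccharide, had the highest median level in both models, with 949 normalized counts per kb in 66cl4 (range 704 to 1250) and 275 in 4T1 (range 146 to 569). Myd88 followed with 172 per kb in 66cl4 and 188 in 4T1. In 66cl4, Tlr13 was next with 125 per kb, followed by Tlr7 with 75.7, Tlr4 with 74.5, Ticam1 with 73.7 and Tlr8 with 70.5. Tlr3 with 41.9, Tlr6 with 38.6 and Tlr9 with 30.2 came last. Cd14 and Myd88 were the only neighbours in this order whose ranges over the 20 tumors of 66cl4 did not overlap. In 4T1, Tlr3 held rank 3 with 89.8 per kb, ahead of Tlr13 with 55.5, Ticam1 with 46.3, Tlr4 with 41.2, Tlr8 with 28.2, Tlr6 with 26.3, Tlr9 with 22.9 and Tlr7 with 17.02. The ranges of all neighbours in the 4T1 order overlapped. Tlr7, a sensor of single-stranded RNA, thus held rank 4 of 10 in 66cl4 and rank 10 in 4T1, and Tlr3, a sensor of double-stranded RNA, rank 8 in 66cl4 and rank 3 in 4T1.

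**Figure D1:**
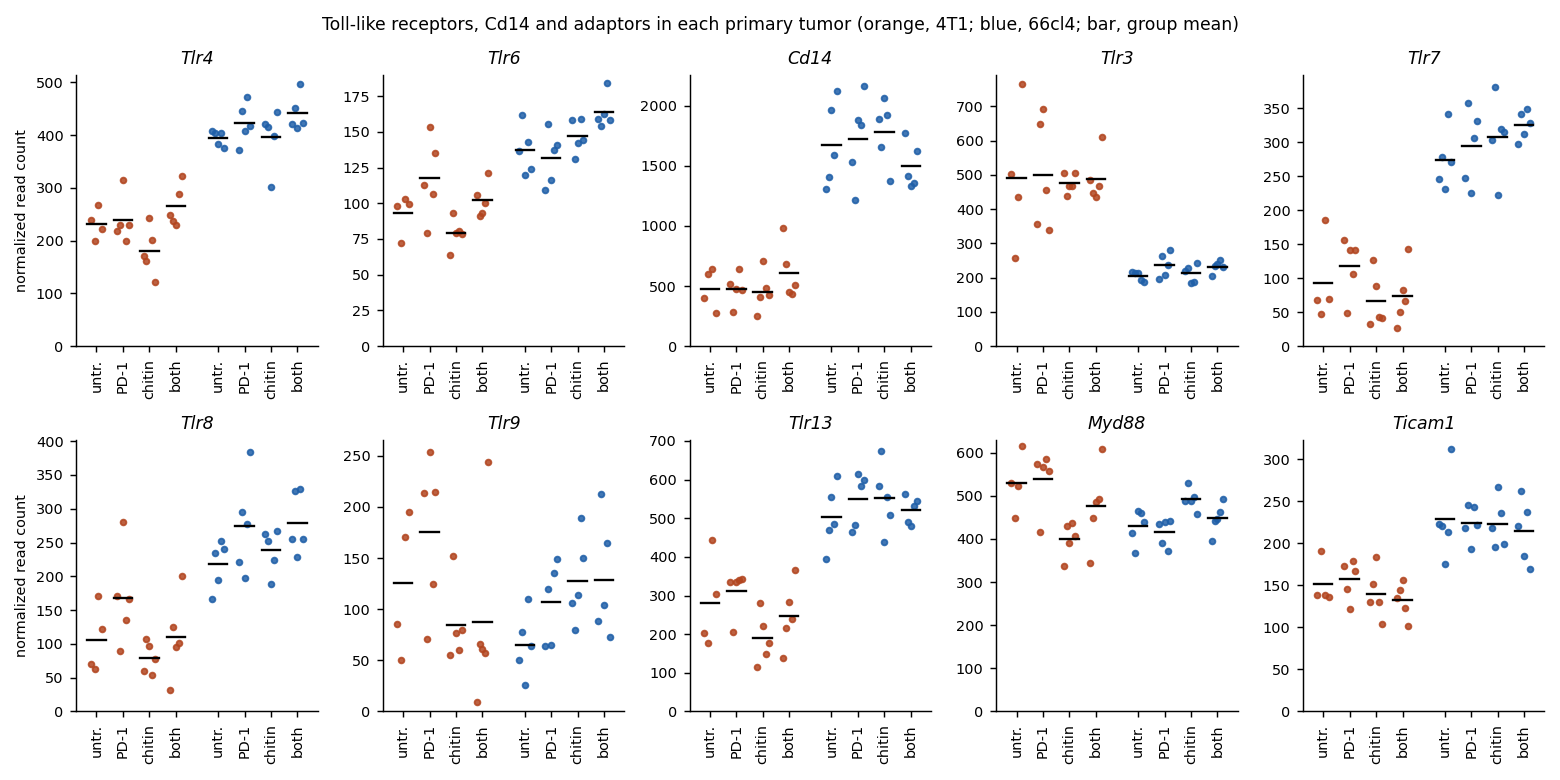
Normalized read count (y axis, linear from 0, each gene on its own scale) of the 10 genes in every tumor of the 8 groups, with 1 point per tumor and a bar at the group mean. The groups (untreated, PD-1 for anti-PD-1, chitin, and both for the combination) are shown first 4T1 in orange and then 66cl4 in blue. All 4T1 tumors lie below all 66cl4 tumors for Cd14 and Tlr7, and Tlr9 spreads from 8.996 to 253 normalized counts in 4T1.

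Untreated tumors of both models were compared first. Of the 10 genes, 9 differed between untreated 4T1 and untreated 66cl4 tumors at an adjusted p below 0.05, 7 being lower and 2 higher in 4T1. Over all genes tested, 55.8% differed, 28.7% higher and 27.1% lower in 4T1, so that a difference between the models was common for any gene. Without overlap between the groups, 5 of the 10 genes and 43.1% of all genes separated the untreated tumors, 4 members (20.7% of genes) lower and 1 (22.3%) higher in 4T1. The median difference of the 10 genes was -0.47 on the log2-like scale of the deposited values, against 0.016 for all genes. This scale compresses the differences of genes with few reads, so that the fold between mean normalized counts is given beside it.

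Among the cell surface receptors and their co-receptor, Cd14 had 401, 597, 646 and 274 normalized counts in untreated 4T1 tumors 1, 2, 4 and 5, and 1307, 1404, 1963, 1588 and 2119 in untreated 66cl4 tumors 1 to 5. The groups did not overlap, and the highest 4T1 tumor was below the lowest 66cl4 tumor. The group means were 479 ± 173 (SD, n = 4) and 1676 ± 353 (SD, n = 5), 3.496-fold lower in 4T1, with a difference of -1.61 on the log2-like scale (95% confidence interval -2.04 to -1.18, limma adjusted p = 8.9e-08). Tlr4, the lipopolysaccharide receptor, had 240.0, 200.1, 267 and 221 normalized counts in the 4T1 and 408, 403, 382, 404 and 376 in the 66cl4 tumors. Again no tumor of one group reached the range of the other, and Tlr4 was 1.70-fold lower in 4T1 (difference -0.56, SE 0.10, limma adjusted p = 1e-05). Tlr6, the partner of Tlr2, had 98.1, 71.9, 103 and 99.6 normalized counts in 4T1 and 136, 162, 119.6, 143 and 124 in 66cl4. All 4 tumors of 4T1 were below the 66cl4 tumors here too, at a 1.47-fold lower mean (difference -0.31, SE 0.079, limma adjusted p = 0.00138).

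Of the endosomal receptors, Tlr7 had 68.6, 46.9, 186 and 69.5 normalized counts in the untreated 4T1 tumors and 245, 279, 231, 341 and 271 in the untreated 66cl4 tumors. Untreated 4T1 tumor 4 stood above its group and still remained below every 66cl4 tumor. The mean was 2.95-fold lower in 4T1 (difference -1.02, 95% confidence interval -1.40 to -0.63, limma adjusted p = 2.9e-05). Tlr8, its neighbour on chromosome X and a further RNA sensor, had 69.8, 62.5, 171 and 122 normalized counts in 4T1 and 166, 234, 194, 252 and 240.2 in 66cl4. The ranges overlapped through 4T1 tumor 4, and the mean was 2.04-fold lower in 4T1 (difference -0.66, SE 0.19, limma adjusted p = 0.00319). Tlr13, which senses bacterial ribosomal RNA, had 202, 178, 444 and 303 normalized counts in 4T1 and 395, 470.0, 555, 484 and 610.0 in 66cl4. Tumor 4 of 4T1 was once more the highest of its group and the only one within the 66cl4 range, and the mean was 1.79-fold lower in 4T1 (difference -0.68, SE 0.17, limma adjusted p = 0.00081).

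The other endosomal receptors were not lower in 4T1. Tlr3 had 501, 256, 436 and 764 normalized counts in 4T1 and 217, 214, 215, 194 and 188 in 66cl4. Its 66cl4 values lay close together, 4T1 tumor 5 was the highest, and the groups did not overlap. The mean was 2.38-fold higher in 4T1 (difference 0.85, 95% confidence interval 0.55 to 1.16, limma adjusted p = 1.3e-05). Tlr9, a sensor of unmethylated CpG DNA, had 85.1, 50.0, 170.3 and 195 normalized counts in 4T1 and 50.1, 77.9, 25.5, 109 and 64.1 in 66cl4. Tumors 4 and 5 of 4T1 exceeded all untreated 66cl4 tumors and tumors 1 and 2 did not, and the difference of 0.44 (95% confidence interval -0.095 to 0.98) did not pass the threshold (limma adjusted p = 0.155).

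The adaptors moved apart. Ticam1 had 138, 191, 138 and 136 normalized counts in 4T1 and 223, 220.1, 176, 214 and 312 in 66cl4, with an overlap through 4T1 tumor 2 and 66cl4 tumor 3. It was 1.52-fold lower in 4T1 (difference -0.38, SE 0.10, limma adjusted p = 0.00208). Myd88 had 529.6, 449, 522 and 616 normalized counts in 4T1 and 414, 367, 465, 459.8 and 440.4 in 66cl4, the lowest 4T1 tumor lying within the 66cl4 range. It was 1.23-fold higher in 4T1 (difference 0.24, SE 0.092, limma adjusted p = 0.0276), and this call was lost without untreated 4T1 tumor 1 (adjusted p = 0.0511), 4T1 tumor 5 (0.132) or 66cl4 tumor 2 (0.0855), and with quantile normalization (0.0735). The other 8 calls were kept under all alternatives that were run.

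**Figure D2:**
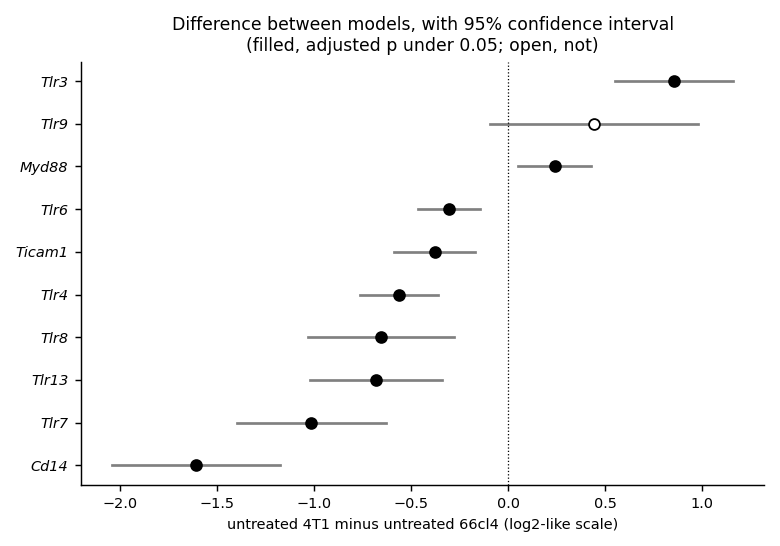
Difference between untreated 4T1 and untreated 66cl4 tumors on the log2-like scale (x axis) for the 10 genes, with 95% confidence intervals from the fit over all 8 groups (n = 4 and 5). Filled points passed an adjusted p of 0.05; Cd14 is farthest to the left at -1.61, Tlr3 farthest to the right at 0.85, and Tlr9 is the open point.

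Over all 39 tumors, irrespective of treatment, 2 of the 10 genes separated the models without overlap. Cd14 ran from 253 to 986 normalized counts in 4T1 and from 1220.0 to 2165 in 66cl4, and Tlr7 from 26.2 to 186 and from 222 to 382. Among all genes, 17.9% separated the models in this way, 7.98% with lower values in 4T1, so that 2 of 10 is near what any genes showed. Tlr4 (122 to 323 against 301 to 496) and Tlr3 (256 to 764 against 185 to 282) overlapped only slightly. The ranges of Tlr9 overlapped widely, from 8.996 to 253 in 4T1 and from 25.5 to 213 in 66cl4.

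Markers of other cells differed between the models as well. Of 8 macrophage markers, 5 were lower in untreated 4T1 tumors and none was higher, with Mrc1 at -2.68, Adgre1 at -0.99, Cd68 at -0.96 and Csf1r at -0.78, whereas the complement genes C1qa, C1qb and C1qc did not pass. The summed macrophage markers ran from 15325 to 24753 normalized counts in untreated 4T1 and from 25947 to 38325 in untreated 66cl4. Of the 7 neutrophil markers 5 were higher in 4T1, of the 5 dendritic cell markers 2, led by Itgax (2.30), of the 4 T cell markers 3, and of the 5 epithelial markers all 5. The part of these cell types in the differences of the receptor genes was not tested.

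The wider pathway was described from 7 lists of 61 genes, 60 of which were measured. Of the 5 other Toll-like receptors, Tlr12 was higher (1.41, SE 0.19, limma adjusted p = 1.2e-07) and Tlr5 lower (-0.43) in untreated 4T1, while Tlr1, Tlr2 and Tlr11 did not pass. Of 8 co-receptors and chaperones, 3 were lower and none higher, namely Ly96, which completes the Tlr4 receptor (-0.23), the lipopolysaccharide-binding protein gene Lbp (-1.43) and the scavenger receptor Cd36 (-1.30). Of 4 other adaptors, Tirap, the bridging adaptor of Myd88, was higher (0.83), and Ticam2, the bridging adaptor of Ticam1, was lower (-0.70), as was Sarm1 (-0.25). The 17 kinases and ubiquitin ligases split into 6 higher and 7 lower, with Chuk (-0.79), Irak4 (-0.63) and Ikbkg (-0.62) among the lower and Peli1 (0.60) among the higher genes.

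Further down the pathway, 2 of 8 transcription factors were higher and 3 lower in 4T1. The interferon regulator Irf7 stood at 1.67, Nfkb2 at -1.01, Relb at -0.47 and Rel at -0.35. Of 8 inhibitors, Tnfaip3 (0.59) and Sigirr (0.42) were higher and Irak3 (-0.49) and Tollip (-0.33) lower. Of the 10 measured target genes of the pathway, 6 were higher in 4T1 and none lower, against 28.7% and 27.1% of all genes, led by the nitric oxide synthase gene Nos2 (1.69), the cytokine Il1b (1.65), the chemokine Cxcl10 (1.28) and the interferon-induced Isg15 (1.23). The median difference of the target genes was 0.74, against 0.016 for all genes and -0.47 for the 10 receptor and adaptor genes.

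The next question was whether chitin changed these genes within a model, for which both chitin-containing groups were compared with the untreated and anti-PD-1 groups. In 4T1 no gene of the table passed an adjusted p of 0.05 by limma or by limma-voom, and 1042 genes (7.28%) had an unadjusted p below 0.05. Of the 10 genes, 8 had a negative and 2 a positive difference, with a median of -0.17 against 0.0040 for all genes, and 3 (Myd88, Tlr9 and Tlr13) had an unadjusted p below 0.05, with negative differences, against 4.46% of all genes in that direction. The comparison covers 10 against 9 tumors.

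Myd88 had 529.6, 449, 522 and 616 normalized counts in the untreated, 574, 416, 567, 584 and 557 in the anti-PD-1, 338, 430.2, 390.3, 436 and 408 in the chitin and 344, 448, 485, 492 and 608 in the chitin + anti-PD-1 group of 4T1. All 5 tumors with chitin alone were below all 4 untreated tumors, which was the case for 0.314% of all genes (0.74% in either direction), whereas the chitin + anti-PD-1 group overlapped both groups without chitin. The difference over the chitin-containing groups was -0.24 (95% confidence interval -0.41 to -0.068, limma adjusted p = 0.58), and that of chitin alone against untreated tumors -0.32 (SE 0.12, limma adjusted p = 1). With weights estimated for each tumor, the limma adjusted p of Myd88 was 0.0493 at a difference of -0.24, and 297 of all 14318 genes passed.

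Tlr9 had 85.1, 50.0, 170.3 and 195 normalized counts in the untreated, 213, 70.9, 253, 125 and 214 in the anti-PD-1, 55.0, 152, 76.6, 60.3 and 79.8 in the chitin and 8.996, 66.3, 60.7, 57.2 and 244 in the chitin + anti-PD-1 group of 4T1. In the last group, 4 of the 5 tumors were at or below 66.3 and tumor 5 lay within the anti-PD-1 range, so that all groups overlapped. The difference with chitin was -0.47 (95% confidence interval -0.92 to -0.031, limma adjusted p = 0.665), and that of chitin + anti-PD-1 against anti-PD-1 was -0.69 (SE 0.29, limma adjusted p = 0.498). The latter passed with tumor weights, at -0.89 and a limma adjusted p of 0.00857, a setting under which 2127 of all 14318 genes passed.

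Tlr13 had 202, 178, 444 and 303 normalized counts in the untreated, 335, 206, 335, 339.5 and 343 in the anti-PD-1, 116, 281, 222, 149 and 177 in the chitin and 137, 215, 283, 239 and 365 in the chitin + anti-PD-1 group. Anti-PD-1 tumor 2 stood apart from its group, whose other 4 tumors lay within 335 to 343, and chitin tumor 1 was the lowest of the model. The difference with chitin was -0.32 (95% confidence interval -0.62 to -0.015, limma adjusted p = 0.665). Tlr7 and Tlr8 had differences of -0.29 and -0.29 (limma adjusted p = 0.748 and 0.73). Tlr7 ran from 26.2 to 143 normalized counts in the chitin-containing and from 46.9 to 186 in the other 4T1 groups, and Tlr8 from 31.1 to 201 and from 62.5 to 280.2.

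The genes at the cell surface and Tlr3 showed smaller differences in 4T1. Tlr4 had 171, 162, 243, 200.5 and 122 normalized counts with chitin alone, 249, 236, 229, 289 and 323 with chitin + anti-PD-1 and 240.0, 200.1, 267 and 221 without treatment. Chitin alone differed from untreated by -0.26 (SE 0.12, limma adjusted p = 1) and chitin + anti-PD-1 by 0.13, neither of which passed the threshold. Tlr6 was at -0.11, Ticam1 at -0.11, Cd14 at 0.11 (95% confidence interval -0.26 to 0.47) and Tlr3 at 0.025 (-0.26 to 0.31) over the chitin-containing groups. Cd14 reached 986 normalized counts in chitin + anti-PD-1 tumor 1, the highest of the model, in which Tlr7 (26.2), Tlr8 (31.1) and Tlr9 (8.996) were the lowest of the model.

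That tumor also had the lowest sum of macrophage markers, 5299 normalized counts, and the highest sum of neutrophil markers, 10515, of all 4T1 tumors. Without it, the differences with chitin in 4T1 were -0.36 for Tlr9, -0.25 for Tlr13, -0.19 for Myd88, -0.23 for Tlr7, -0.20 for Tlr8 and 0.025 for Cd14. Their limma adjusted p lay between 0.877 and 0.997. Tlr9 and Tlr13 then no longer had an unadjusted p below 0.05 (limma, 0.0760 and 0.0826), while Myd88 did (0.0159). Anti-PD-1 tumor 2, the other tumor that stood apart, had 13287 normalized counts of macrophage markers against 28550.3 to 33552 in the rest of its group. Without it, the differences were -0.56 for Tlr9, -0.37 for Tlr13, -0.27 for Myd88, -0.36 for Tlr7 and -0.35 for Tlr8, with adjusted p between 0.130 and 0.317. Over the chitin-containing 4T1 groups, the median difference was -0.61 for the 8 macrophage markers, -0.46 for 4 T cell markers, -0.42 for 5 dendritic cell markers, 0.25 for 7 neutrophil markers and 0.30 for 5 epithelial markers. At an unadjusted p below 0.05, 6 of 8 macrophage, 4 of 4 T cell, 4 of 5 dendritic cell and 2 of 3 measured B cell markers had negative differences. Their part in the lower values of the receptor genes was not tested.

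In 66cl4, too, no gene passed by limma or limma-voom, and 2238 (15.6%) had an unadjusted p below 0.05, 7.79% being higher with chitin. Of the 10 genes, 8 had a positive and 2 a negative difference (Tlr3 turned negative with limma-voom and at equal depth), with a median of 0.044 against 0.0026 for all genes. Myd88, Tlr6 and Tlr9 had an unadjusted p below 0.05, each with a positive difference. Myd88 had 414, 367, 465, 459.8 and 440.4 normalized counts in the untreated, 434, 391, 438, 371 and 443 in the anti-PD-1, 489, 531, 487, 497 and 457 in the chitin and 396, 442, 446, 463 and 493.2 in the chitin + anti-PD-1 group. The chitin group was the highest and reached into the untreated range through its tumor 5 alone. The difference was 0.12 (95% confidence interval 0.036 to 0.21, limma adjusted p = 0.176).

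Tlr6 had 136, 162, 119.6, 143 and 124 normalized counts in the untreated, 109, 155, 116, 138 and 141 in the anti-PD-1, 158, 131, 142, 159 and 144 in the chitin and 159, 154, 163, 184 and 158 in the chitin + anti-PD-1 group of 66cl4. The combination held the highest tumor and narrow values, and overlapped both groups without chitin through their tumor 2. The difference was 0.13 (SE 0.043, limma adjusted p = 0.176), and that of chitin + anti-PD-1 against anti-PD-1 0.19 (SE 0.06, limma adjusted p = 0.477). Tlr9 had 50.1, 77.9, 25.5, 109 and 64.1 normalized counts in the untreated, 64.2, 119, 65.3, 135 and 149 in the anti-PD-1, 106, 79.7, 114, 189 and 150.1 in the chitin and 88.2, 213, 104, 165 and 72.9 in the chitin + anti-PD-1 group. The untreated group held the lowest 66cl4 tumor and all groups overlapped. The difference with chitin was 0.32 (95% confidence interval 0.053 to 0.59, limma adjusted p = 0.24).

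The remaining genes of 66cl4 differed by 0.12 (Tlr7), 0.061 (Tlr8), 0.028 (Tlr13), 0.022 (Tlr4), 0.0088 (Tlr3), -0.034 (Ticam1) and -0.04 (Cd14), with limma adjusted p from 0.425 to 0.952. The sum of macrophage markers was higher in these chitin-containing groups as well, with means of 41324 ± 2368 normalized counts for chitin alone and 43045 ± 4099 for the combination, against 34096 ± 4779 untreated and 38318 ± 5293 with anti-PD-1 (SD, n = 5). The chitin-containing 66cl4 groups also had more counted reads per tumor, and with all tumors thinned to 5105898 reads again no gene passed. Some markers of other cells had positive differences too, and at an unadjusted p below 0.05 these were 4 of 8 macrophage, 3 of 4 T cell, 2 of 5 dendritic cell and 2 of 7 neutrophil markers, 1 of 3 measured B cell and 1 of 3 plasmacytoid dendritic cell markers, with median differences of 0.22, 0.15, 0.13, -0.056, -0.031 and 0.063. The medians of the neutrophil and B cell lists were thus negative. At the same level, 1 of 4 endothelial and 1 of 5 fibroblast markers had a negative difference. The part of these cell types and of depth in the values was not tested.

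**Figure D3:**
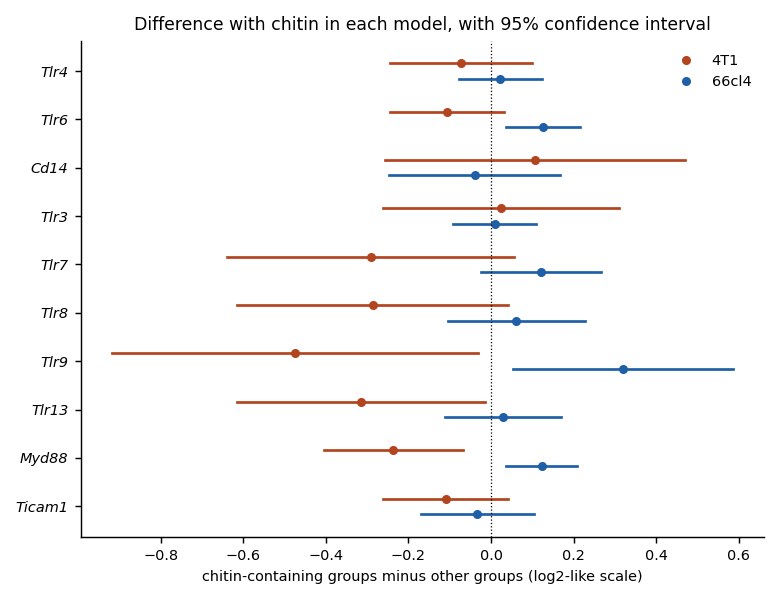
Difference with chitin (groups that held it minus groups that did not) on the log2-like scale (x axis) for the 10 genes in 4T1 (orange, 10 against 9 tumors) and 66cl4 (blue, 10 against 10), with 95% confidence intervals. For Myd88 and Tlr9 both intervals exclude 0 on opposite sides, at -0.24 and 0.12 and at -0.47 and 0.32, and no difference passed an adjusted p of 0.05.

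Whether the difference with chitin was unlike between the models was tested as an interaction over all 8 groups. Of all genes, 14 (0.0978%) passed, none of the 10 members among them. At an unadjusted p below 0.05, as for 13.2% of all genes, 5 of the 10 differed (Myd88, Tlr9, Tlr6, Tlr7 and Tlr13), all with the lower value in 4T1, against 7.66% of all genes in that direction. Myd88 was closest to the threshold, at -0.36 (95% confidence interval -0.54 to -0.18, limma adjusted p = 0.0749), followed by Tlr9 at -0.79 (-1.31 to -0.28, adjusted p = 0.143) and Tlr6 at -0.23 (-0.39 to -0.079, adjusted p = 0.151). Tlr7 stood at -0.41 and Tlr13 at -0.34 (limma adjusted p = 0.313 and 0.346). Without 4T1 chitin + anti-PD-1 tumor 1, Tlr7 and Tlr13 no longer had an unadjusted p below 0.05 (limma, 0.0551 and 0.0733). The call of Myd88 depended on single tumors: it passed without 4T1 anti-PD-1 tumor 2 (adjusted p = 0.00778), chitin tumor 2 (0.0351), chitin + anti-PD-1 tumor 5 (0.0157) or untreated tumor 2 (0.0414), and with tumor weights (0.00288). Tlr9 and Tlr6 passed without 4T1 anti-PD-1 tumor 2 (0.0353 and 0.0211) and with tumor weights (0.0157 and 0.0186), and Tlr9 also without chitin + anti-PD-1 tumor 5 (0.0275). Many other genes passed in the same fits. Of all 14318 genes, these were 677 without anti-PD-1 tumor 2, 183 without chitin tumor 2 and 282 without chitin + anti-PD-1 tumor 5. Without untreated tumor 2 the number was 83, and with tumor weights 1004.

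The only gene of the 7 pathway lists that passed this test was Tlr12, an endosomal receptor of mouse that senses profilin of parasites. Its normalized counts in 4T1 were 108, 93.8, 148 and 157 in the untreated, 204, 73.6, 131, 172 and 214 in the anti-PD-1, 48.4, 96.2, 77.9, 52.6 and 89.7 in the chitin and 12.3, 20.2, 54.4, 42.2 and 117 in the chitin + anti-PD-1 group. With chitin + anti-PD-1, 4 of the 5 tumors lay below every tumor of the groups without chitin. In 66cl4, Tlr12 had 2.50, 6.88, 5.28, 12.9 and 5.34 untreated, 2.57, 15.2, 5.94, 15 and 15.5 with anti-PD-1, 28.4, 8.86, 11.6, 26.9 and 20.6 with chitin and 6.72, 38.3, 4.13, 48.6 and 2.81 with chitin + anti-PD-1, at most 48.6 in any tumor. The difference with chitin was -0.66 in 4T1 and 0.22 in 66cl4, and the test between the models gave -0.87 (SE 0.18, limma adjusted p = 0.0409). This call was close to the threshold, and in a check added after the data were seen it was kept in 12 and lost in 27 of the 39 fits that left out 1 tumor, at differences from -0.96 to -0.81 and limma adjusted p from 0.00338 to 0.085. It was also lost with limma-voom (adjusted p = 0.116) and at equal depth (adjusted p = 0.0701). In 66cl4, the gene of the lists closest to the threshold was Tlr1, a surface receptor that pairs with Tlr2, at 0.30 (SE 0.057, limma adjusted p = 0.0746), followed by Ikbkg, a subunit of the kinase complex that activates NF-κB, at -0.35 (adjusted p = 0.0947). In 4T1, Tlr12 (adjusted p = 0.451) was followed by the chemokine Ccl5 at -0.87 (adjusted p = 0.58).

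Anti-PD-1 alone was compared with no treatment in each model. No gene passed in 4T1 or 66cl4 by limma or limma-voom, 8.89% and 5.36% of genes had an unadjusted p below 0.05, and none of the 10 members was among them. Of the marker lists, all 4 T cell, 3 measured B cell, 4 adipocyte and 3 measured lactating epithelial markers and 3 of 5 dendritic cell markers had positive differences at an unadjusted p below 0.05 in 4T1, none of them passing the adjusted threshold. Their median differences were 0.78, 0.92, 1.64, 1.99 and 0.62, against 0.40 for the macrophage markers, of which 0 of 8 reached an unadjusted p below 0.05. A negative difference at that level was found for 1 of 7 neutrophil markers. The summed T cell markers ran from 111 to 440.4 normalized counts in untreated and from 344 to 889 in anti-PD-1 tumors of 4T1, and the summed adipocyte markers from 9.38 to 211 and from 4.01 to 3019. In 66cl4 no list had more than 1 marker at an unadjusted p below 0.05, and the macrophage markers had a median of 0.15. The part of these cell types was not tested. In 4T1 all 10 differences were positive, with a median of 0.096 against -0.00053 for all genes. The largest were Tlr8 at 0.38 (95% confidence interval -0.093 to 0.86) and Tlr9 at 0.30 (-0.34 to 0.95). Tlr3 and Tlr4 turned negative with tumor weights and Tlr4 with limma-voom. Leaving out single tumors turned Tlr3, Tlr4, Cd14 and Myd88 negative, and further changes of sign are listed at the end. Tlr8 had 69.8, 62.5, 171 and 122 normalized counts in the untreated and 171, 89.7, 280.2, 135 and 166 in the anti-PD-1 tumors of 4T1, with a wide overlap. In 66cl4, 7 of the 10 were positive (with limma-voom Ticam1 changed sign), led by Tlr9 at 0.35 (-0.023 to 0.73) and Tlr8 at 0.22 (-0.014 to 0.46), and the limma adjusted p of both was 0.911. Tlr8 had 166, 234, 194, 252 and 240.2 normalized counts in the untreated and 221, 295, 197, 278 and 384 in the anti-PD-1 tumors of 66cl4, which overlapped as well. The effect of anti-PD-1 did not pass as different between the models for any gene, with 7.27% of genes and none of the 10 members at an unadjusted p below 0.05. Of the pathway lists, Ccl5 was closest to the threshold in 4T1, at 1.58 (limma adjusted p = 0.517), followed by Tnf at 0.26, while Irak1 (0.12) and Irf3 (0.14) were closest in 66cl4 and Ccl5 (1.32) and Tollip (-0.18) in the test between the models.

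The single treated groups that held chitin gave the same counts of called genes, none, by limma and limma-voom. In 4T1, chitin against untreated gave 2.77% of genes at an unadjusted p below 0.05, 1.38% with a negative difference, and Myd88 and Tlr4 were the 2 of 10 members among the latter. The combination against untreated gave 2.56% and 0 members, and the combination against anti-PD-1 gave 9.13% of genes, 5.59% with a negative difference, and 1 member (Tlr9, negative). In 66cl4, chitin against untreated gave 11.4% of genes, 6.17% with a positive difference, and 2 members (Myd88 and Tlr9, positive). The combination gave 10.6%, 5.77% positive, and 3 members (Tlr6, Tlr8 and Tlr9, positive) against untreated, and 8.30%, 3.81% positive, and 1 member (Tlr6, positive) against anti-PD-1. Tlr9 of 66cl4 differed from untreated tumors by 0.50 under chitin alone and by 0.49 under the combination (limma adjusted p = 0.284 and 0.36), comparisons that share the untreated tumors. Tlr4 of 66cl4 was the member whose chitin + anti-PD-1 tumors (421, 452, 413, 496 and 423) all lay above the untreated tumors (408, 403, 382, 404 and 376), as did 1.1% of all genes (2.12% in either direction), with a difference of 0.12 (adjusted p = 0.553).

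In the pathway lists, the genes with the smallest p were the following. For 4T1, these were Nfkbia (-0.35) and Tlr12 (-0.41) for chitin against untreated, Tlr12 (-0.73) and Irf7 (-0.56) for chitin + anti-PD-1 against untreated, and Tlr12 (-0.90) and Ccl5 (-1.66) for chitin + anti-PD-1 against anti-PD-1. For 66cl4, they were Tlr1 (0.36) and Irf5 (0.24), Tlr1 (0.40) and Il12b (0.33), and Ikbkg (-0.41) and Irak1 (-0.13) for the same comparisons. Their limma adjusted p ran from 0.169 to 1.0.

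Tumors of the same group differed from each other more in 4T1 than in 66cl4, a difference that was not itself tested. The median SD between tumors within a group was 0.19 in 4T1 and 0.11 in 66cl4 on the log2-like scale. Tlr9 had the widest spread of the 10 genes in both, with an SD of 0.50 and 0.32, at the 94.2 and 96.7 percentile of all genes. Cd14 (0.40 and 0.24), Tlr7 (0.39 and 0.17), Tlr8 (0.36 and 0.19) and Tlr13 (0.33 and 0.16) followed. Tlr6 (0.133 and 0.091), Myd88 (0.173 and 0.090) and Tlr4 (0.177 and 0.110) were below the median of all genes in both models. Tlr3 had an SD of 0.31 in 4T1 and 0.11 in 66cl4.

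It was then asked how far the members varied between tumors together with the 8 macrophage markers, after the mean of each treatment group had been removed. In 4T1 (n = 19), the Pearson correlation was 0.92 (Spearman rho 0.93, adjusted p = 0.0002 and 0.0002) for Tlr13, 0.85 (Spearman rho 0.85, adjusted p = 0.0004 and 0.0009) for Tlr7 and 0.84 (Spearman rho 0.72, adjusted p = 0.00053 and 0.00733) for Tlr8, each p from a two-sided test with 100000 permutations within groups, adjusted over 20 correlations. The value for Tlr13 is the smallest that these permutations can give. It was 0.83 (Spearman rho 0.72, adjusted p = 0.00085 and 0.00733) for Tlr9 and 0.84 (Spearman rho 0.65, adjusted p = 0.00207 and 0.0165) for Myd88. The nucleic acid sensors Tlr7, Tlr8, Tlr9 and Tlr13 and the adaptor Myd88 were thus high in the 4T1 tumors with much macrophage RNA. How many genes of the whole table followed these markers as closely was not counted in either model. The correlations are therefore not shown to be particular to these genes. Anti-PD-1 tumor 2 and chitin + anti-PD-1 tumor 1 were farthest from the median of the marker mean, and without them the correlations were 0.93, 0.82, 0.71, 0.72 and 0.66.

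The other members of 4T1 did not follow the macrophage markers past the threshold. Tlr6 stood at 0.54 (Spearman rho 0.46, adjusted p = 0.0539 and 0.11), Tlr4 at 0.20, Ticam1 at 0.026, Tlr3 at -0.051 and Cd14 at 0.0032 (permutation test, adjusted p of these 4 from 0.567 to 0.990). Cd14, whose product is a common surface marker of monocytes and macrophages, did not pass in 66cl4 either, at 0.30.

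In 66cl4 (n = 20), the correlation was 0.79 (Spearman rho 0.79, adjusted p = 0.0012 and 0.00235) for Tlr8 and 0.77 (Spearman rho 0.82, adjusted p = 0.00251 and 0.00153) for Tlr9, by the same permutation test. Tlr7 stood at 0.47 (Spearman rho 0.60, adjusted p = 0.0931 and 0.0233), so that it passed by rank and not by Pearson's r. Tlr6 (0.46), Ticam1 (0.44), Tlr13 (0.32), Tlr4 (0.28), Tlr3 (0.22) and Myd88 (-0.068) did not pass. Without the tumors farthest from the median, anti-PD-1 tumor 5 and untreated tumor 1, r was 0.72 for Tlr8, 0.85 for Tlr9 and 0.43 for Tlr7. Tlr13 and Myd88 had 0.92 and 0.84 in 4T1 and 0.32 and -0.068 in 66cl4, a contrast that was not itself tested, and the sum of the macrophage markers ran from 25947 to 48591 in 66cl4 against 5299 to 33552 in 4T1.

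**Figure D4:**
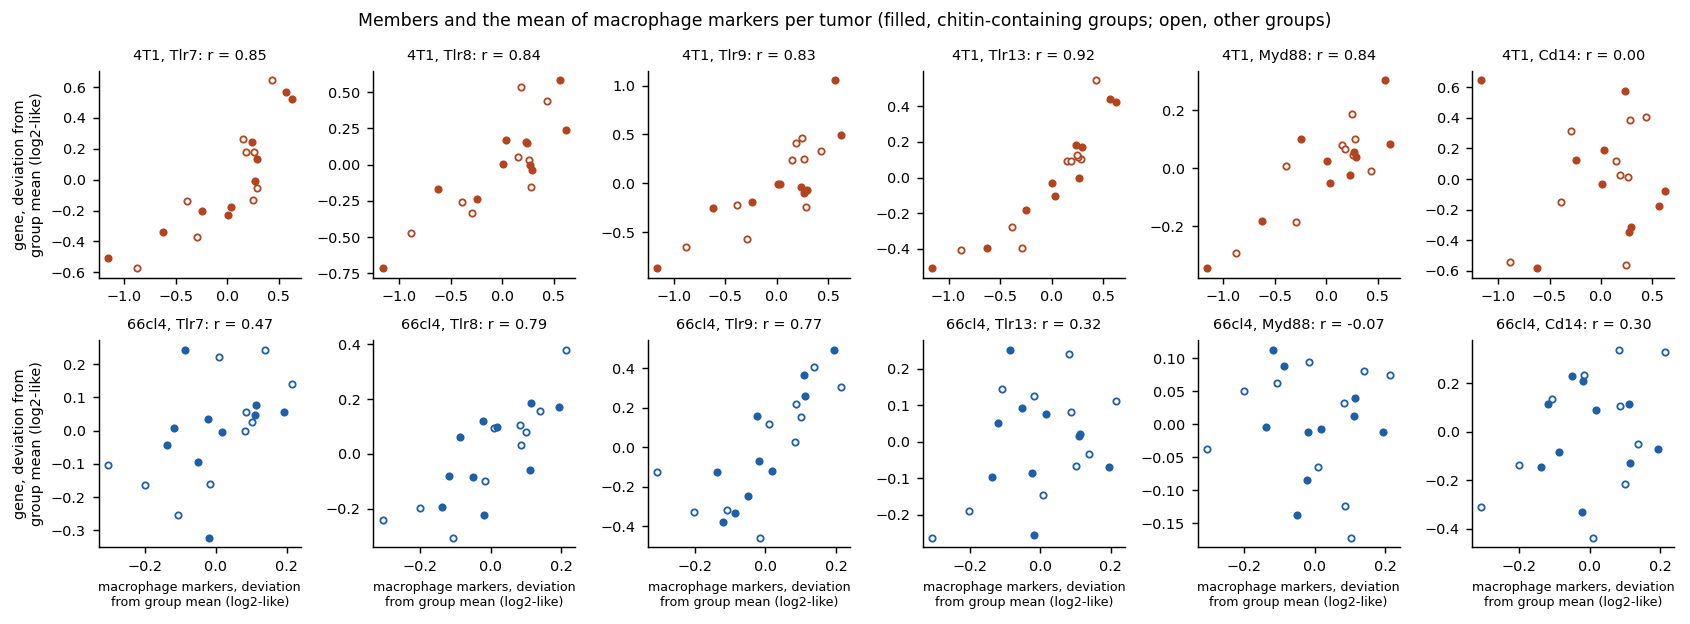
Deviation of 6 genes from their group mean (y axis, log2-like scale) against that of the mean of 8 macrophage markers (x axis, same scale) in 19 4T1 tumors (top, orange) and 20 66cl4 tumors (bottom, blue), filled for chitin-containing groups. Each panel has its own y axis and gives Pearson's r. In 4T1, Tlr13 (r = 0.92) rises along the whole range, and Cd14 shows no slope.

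Other cell markers varied along with these genes too, and their part was not separated from that of macrophages. In 4T1, Tlr9 had r = 0.80 with T cell and 0.75 with dendritic cell markers, Tlr8 had 0.80 with fibroblast, 0.80 with skeletal muscle and 0.79 with endothelial markers, and Myd88 had 0.82 with dendritic cell markers. With epithelial markers of 4T1, Tlr7 had -0.62 and Tlr6 -0.50, while Tlr3 had 0.45. With neutrophil markers, Tlr9 had -0.44 and Myd88 -0.42, while Cd14 had 0.37. In 66cl4, Tlr9 had r = 0.84 with T cell markers and 0.77 with macrophage markers, Tlr8 had -0.68 with neutrophil markers, and Ticam1 had 0.75 with B cell markers. These values are descriptions over 19 and 20 tumors that share libraries and depth.

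Among themselves, Tlr7, Tlr8, Tlr9 and Tlr13 had pairwise r between 0.83 and 0.94 in 4T1 (6 pairs), highest for Tlr7 and Tlr13. In 66cl4 the same 6 pairs ran from -0.17 to 0.77, highest for the neighbours Tlr7 and Tlr8. Over all 45 pairs of the 10 genes, the median was 0.27 in 4T1 and 0.25 in 66cl4. The lowest values were -0.67 for Tlr3 and Ticam1 in 4T1 and -0.46 for Tlr6 and Myd88 in 66cl4. The shared direction of Tlr7, Tlr8, Tlr9 and Tlr13 in 4T1 is the pattern for which the promoters of Tlr8, Tlr9 and Tlr13 are shown. Tlr3, also a nucleic acid sensor, did not share it in 4T1, with r from -0.064 to 0.27 with these genes. Myd88 (r from 0.68 to 0.85) and Tlr6 (0.61 to 0.69) varied along with Tlr7, Tlr8, Tlr9 and Tlr13 in 4T1.

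For each member, the 3 genes of the table most like it were sought over all 39 tumors by Pearson's r on deviations from the 8 group means. For Tlr13 these were Nckap1l (0.93, Spearman rho 0.88), Btk (0.90, 0.84) and Ms4a6c (0.89, 0.78). Tlr9 came with Ankrd44 (0.91), Pik3ap1 (0.91) and Cyria (0.91), of which Pik3ap1 is an adaptor of the same pathway. Tlr7 came with the macrophage receptor Siglec1 (0.91), Ms4a6b (0.87) and Mef2c (0.86), and Tlr8 with Nsd1 (0.91), Slfn5 (0.90) and Akap13 (0.89). Tlr3 came with Cyld (0.83), a deubiquitinase that restrains NF-κB signalling, the interferon-induced Samd9l (0.80) and Tnfsf10 (0.80).

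The values were lower for the other genes. Myd88 came with Prxl2b (0.78), Hcls1 (0.78) and Eif4e3 (0.78), Tlr6 with Gpr162 (0.76), Rnf144b (0.75) and Il16 (0.74), and Ticam1 with Rps6kc1 (0.75), Add1 (0.74) and Anapc2 (0.73). Tlr4 came with Phc3 (0.75), Pdpr (0.74) and Xrn1 (0.73). Cd14 had the lowest values, with the platelet factor gene Pf4 (0.74, Spearman rho 0.74), Gpc1 (0.69) and Ltbr (0.66). The 19 4T1 tumors weigh most in these values, since their spread was the wider.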

How the data were processed

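Primary tumor RNA had been sequenced from stranded libraries, and the table holds 39 tumors. The authors aligned reads with HISAT2 to mm10, counted them per gene with strand taken into account, kept genes above a minimum count, and deposited 14318 genes as log2-like values from the variance stabilizing transformation of DESeq2. The paper states a slightly smaller number of genes after its filter, and the reason for this mismatch is not known here. Tool versions are not given in the sources used here. The values were tested as deposited. The transformation was inverted, which gave whole reads for 100% of values (tolerance 0.001 reads), and normalized counts are these reads divided by the recovered size factors. Depth, the sum of these reads over the genes of the table, was 5105898 to 14800352 reads per tumor. Spread between tumors was used as the error.

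Groups came from the sample titles. R 4.3.3 with limma 3.58.1 was used for linear models with moderated variances (eBayes with a mean-variance trend) over the 4 groups of a model or all 8 groups, with Benjamini-Hochberg adjustment over 14318 genes, and the fits were tested on simulated data. Correlations used 100000 permutations within groups. Exon lengths and positions came from GENCODE and promoters from RefSeq, both on GRCm38. The members, the gene lists and the rule for named genes (all members, list genes past the threshold or else the 2 with the smallest p, and the 3 most alike) were chosen with earlier results of these data known. Tumor 3 of the untreated 4T1 group, which the study set aside because its RNA was degraded, was not analysed here. The alternatives for Tlr12 were added after seeing the data. Alternatives were a filter on low values, no trend, other samples in the fit, median centring, quantile normalization, tumor weights, a replicate block, limma-voom, equal depth and leaving out each tumor. Other steps ran in Python 3.11.15 (pandas 2.3.3, numpy 2.4.6, matplotlib 3.10.9, scipy 1.17.1).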

Additional observations from a re-analysis of the deposited data

Results flagged for a closer look

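Within the 80 groups formed by 10 genes and 8 treatment groups, 5 held a tumor far from the rest of its group by Dixon's test at 95%, which chance gives in about 1 of 20 groups. In 4T1 treated with anti-PD-1, tumor 2 had the lowest normalized count of both Tlr13 (206, against 335 to 343 in the other 4 tumors) and Myd88 (416, against 557 to 584), and its sum of macrophage markers was the lowest of the group as well. In untreated 4T1, tumor 2 had the lowest Tlr6 (71.9, against 98.1 to 103) and the highest Ticam1 (191, against 136 to 138). In 66cl4 treated with chitin, tumor 3 had the lowest Tlr4 (300.7, against 398 to 445).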

How the results depend on the processing

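The call of untreated 4T1 against untreated 66cl4 was kept for 8 of 9 members under each alternative (all but Myd88), while leaving out a tumor moved the count of all genes between 7406 and 8217 and that of members between 8 and 9. Median centring and limma-voom moved no count by over 1.5 times. A fit of the compared groups alone equals the reported one for the chitin-containing comparisons, so that it gave no further value.

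The counts within a model depended on how the spread was estimated. With both models in 1 fit, 58 genes passed for chitin-containing groups, 60.0 for anti-PD-1, 3 for chitin + anti-PD-1 and 294 for chitin + anti-PD-1 against anti-PD-1 in 4T1, and 1 each for chitin-containing groups and for chitin + anti-PD-1 against anti-PD-1 in 66cl4. With tumor weights, the counts were 297 (1 member), 960.0 and 2127 (1 member) for chitin-containing groups, anti-PD-1 and chitin + anti-PD-1 against anti-PD-1 in 4T1, 185 and 2 for the first and the last in 66cl4, 1004 (3 members) for the difference in the effect of chitin and 331 for that of anti-PD-1. With the lowest 25% of genes left out, 6 genes passed for chitin-containing groups in 66cl4 and 8 for the difference in the effect of chitin, for which quantile normalization gave 39 and equal read depth 4.

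Tumor numbers pair nothing by the labels, and 22 of 57 same-numbered pairs of tumors deviated together with r over 0.1 (-0.39 to 0.54), with 14 of 39 tumors closest to their own number. With the number as a replicate block, 1 gene passed for chitin + anti-PD-1 against untreated and 1 against anti-PD-1 in 4T1, 16, 2 and 7 for chitin-containing groups, chitin and chitin + anti-PD-1 in 66cl4, and 104 (1 member, Myd88 with an adjusted p of 0.0366 by limma) for the difference in the effect of chitin.

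Leaving out 1 tumor gave 0 to 80 genes for anti-PD-1, 0 to 202 for chitin + anti-PD-1 against anti-PD-1 and 0 to 1 for chitin-containing groups in 4T1, the highest values of the first and second without anti-PD-1 tumor 2. In 66cl4 the ranges were 0 to 269 for chitin-containing groups and 0 to 25 for chitin, both highest without untreated tumor 3, and 0 to 3 for both chitin + anti-PD-1 comparisons. For the difference in the effect of chitin the range was 0 (without 4T1 untreated tumor 5) to 677 genes and 0 to 3 members, and for that of anti-PD-1 0 to 86 genes, the highest of both without 4T1 anti-PD-1 tumor 2.

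Differences near 0 changed sign, none of them called. In 4T1, Tlr8 with chitin + anti-PD-1 turned to -0.0038 (quantile), -0.051 (block), -0.22 (voom) and -0.015 (equal depth), Tlr4 with anti-PD-1 to -0.0061 (weights), -0.018 (block) and -0.00011 (voom), Tlr3 with anti-PD-1 to -0.18 (weights), Cd14 with anti-PD-1 to -0.0063 (block), Cd14 with chitin to 0.081 (weights) and Tlr3 with chitin + anti-PD-1 against anti-PD-1 to -0.033 (equal depth). In 66cl4, weights turned Tlr4 with chitin to 0.034 and Tlr8 with chitin + anti-PD-1 against anti-PD-1 to -0.029, voom turned Tlr3 in chitin-containing groups to -0.0027 and Ticam1 to 0.017 (anti-PD-1) and 0.012 (chitin), and equal depth turned Tlr3 to -0.023 (chitin-containing) and -0.016 (chitin) and Ticam1 with chitin to 0.017. In the difference of the anti-PD-1 effect, Cd14 turned to 0.012 (quantile) and 0.011 (weights) and Tlr9 to 0.23 (weights). Leaving out 1 tumor changed the sign of further values, over these ranges: 4T1 chitin-containing groups (Tlr3 -0.081 to 0.13), 4T1 anti-PD-1 (Cd14 -0.17 to 0.15, Tlr3 -0.16 to 0.25, Tlr4 -0.053 to 0.069, Myd88 -0.039 to 0.096), 4T1 combination against anti-PD-1 (Tlr3 -0.086 to 0.12), 4T1 chitin (Cd14 -0.25 to 0.087, Tlr3 -0.17 to 0.24, Ticam1 -0.13 to 0.0024, Tlr7 -0.34 to 0.0014), 4T1 combination (Tlr13 -0.25 to 0.067, Tlr8 -0.14 to 0.18, Tlr3 -0.15 to 0.26, Tlr7 -0.29 to 0.064), 66cl4 chitin-containing groups (Tlr3 -0.014 to 0.032, Cd14 -0.095 to 0.0023, Tlr13 -0.0052 to 0.060, Ticam1 -0.063 to 0.0078), 66cl4 anti-PD-1 (Tlr6 -0.069 to 0.0039, Ticam1 -0.069 to 0.073, Cd14 -0.043 to 0.15), 66cl4 combination against anti-PD-1 (Tlr8 -0.049 to 0.12, Tlr3 -0.057 to 0.033, Ticam1 -0.10 to 0.0038), 66cl4 chitin (Ticam1 -0.077 to 0.065, Tlr4 -0.039 to 0.069, Tlr3 -0.0044 to 0.062), 66cl4 combination (Tlr13 -0.015 to 0.11, Ticam1 -0.12 to 0.024), difference in the effect of chitin (Tlr3 -0.090 to 0.12), difference in the effect of anti-PD-1 (Tlr3 -0.29 to 0.12, Tlr9 -0.24 to 0.11, Cd14 -0.21 to 0.11, Tlr13 -0.094 to 0.22, Myd88 -0.0035 to 0.13, Ticam1 -0.037 to 0.12). Correlations with macrophage markers that were not centred on groups passed also for Tlr6 in 4T1 (0.63) and for Tlr6 (0.54) and Tlr7 (0.59) in 66cl4, turned Cd14 in 4T1 to -0.046 and Myd88 in 66cl4 to 0.16, and equal depth turned Cd14 in 4T1 to -0.0075. The cause of these changes was not tested. Tlr9 had the lowest count of the members, 11 reads in 4T1 chitin + anti-PD-1 tumor 1, and read sampling bears most on such low counts. That tumor had 9908975 counted reads, above the median of 6590274.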
